A study of Mus musculus with 54 samples.

Results

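Osbpl3, St3gal3, Rhob and D16Ertd472e are 4 of the 52636 gene identifiers counted in bone marrow-derived macrophages (BMDMs) of wild-type (WT) mice and of mice labelled N4bp1 knockout (KO). They were chosen on their own counts in these libraries, because their response to the Toll-like receptor ligands Pam3 or R837 was stronger in KO than in WT cells. Differences between KO and WT, and between treated and untreated cells, are therefore given for these genes as a description, with no test. The differences between the ligands and between early and late times within WT cells were not the contrast behind the choice, and they are tested. They share the WT libraries with it, however, and each is a difference between WT responses, which entered that contrast. The choice favoured genes with a low WT response, so these p-values are not independent of the choice and are not support for it.

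Osbpl3 encodes ORP3, a member of the oxysterol-binding protein family, which carries lipids between membranes where the endoplasmic reticulum touches the plasma membrane. ST3GAL3 is a Golgi sialyltransferase that adds sialic acid to galactose at the ends of glycan chains on glycoproteins, and so helps to make ligands for sialic acid-binding lectins. RHOB is a small GTPase on endosomes and the plasma membrane that acts on vesicle traffic, actin and adhesion. Its gene is an immediate-early gene with a short-lived transcript. D16Ertd472e, also listed under the synonym Eurl, is given no role here. Pam3 is read by TLR2 and R837 (imiquimod) by TLR7, and both receptors signal through the adaptor MyD88. N4BP1 is known as a suppressor of inflammatory signalling that binds ubiquitin.

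The 54 libraries covered WT and KO BMDMs, each without ligand or with Pam3 or R837 for 2, 4, 6 or 8 h, with 3 libraries in each of the 18 groups. The labels describe WT mice of the C57BL/6N strain and 3 individual mice per group, with bone marrow cells cultured in M-CSF for 5 days and for 2 more days after replating. The sources used here do not say how N4bp1 was deleted, or the strain, age and sex of the KO mice. Values are CPM, counts scaled to the library size with trimmed-mean (TMM) factors, and a level per kilobase is divided by the exon width of the gene.

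All 4 genes lie on the minus strand of GRCm38. Osbpl3 (ENSMUSG00000029822) spans chr6:50293330-50456201 with up to 22 exons in a transcript. St3gal3 (ENSMUSG00000028538) spans chr4:117932154-118134914 with up to 12. Rhob (ENSMUSG00000054364) is a gene of 1 exon at chr12:8497661-8500009. D16Ertd472e (ENSMUSG00000022864) spans chr16:78540338-78576708 with up to 5 exons. The GENCODE annotation (release M21) has an antisense gene inside St3gal3, 9530034E10Rik, which had at most 2 counts in a library, and one inside D16Ertd472e, 4930478L05Rik, which was not analysed here. The sources used here give no strand setting of the counting.

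The promoters are printed because all 4 genes were above WT in KO cells at 6 and 8 h of both ligands, although their time courses differed. Each runs from 250 bases before to 50 bases after the RefSeq start (GRCm38.p6), 5′ to 3′ on the minus strand. Capitals mark the CCAAT box, CCAAT or its reverse complement ATTGG. The windows are chr6:50456121-50456420 for Osbpl3, chr4:118134897-118135196 for St3gal3, chr12:8499960-8500259 for Rhob and chr16:78576639-78576938 for D16Ertd472e.
Osbpl3: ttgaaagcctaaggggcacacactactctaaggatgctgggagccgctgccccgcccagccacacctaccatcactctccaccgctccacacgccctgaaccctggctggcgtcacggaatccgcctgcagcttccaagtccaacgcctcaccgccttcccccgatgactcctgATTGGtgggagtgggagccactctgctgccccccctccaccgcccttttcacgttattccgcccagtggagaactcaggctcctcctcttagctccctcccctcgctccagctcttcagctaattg
St3gal3: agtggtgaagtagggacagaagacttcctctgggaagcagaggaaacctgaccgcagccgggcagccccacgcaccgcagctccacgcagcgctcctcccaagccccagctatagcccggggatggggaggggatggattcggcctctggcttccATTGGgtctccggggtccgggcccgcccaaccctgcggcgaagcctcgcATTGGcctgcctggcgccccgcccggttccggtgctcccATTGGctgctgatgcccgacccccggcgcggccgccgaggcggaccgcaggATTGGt
Rhob: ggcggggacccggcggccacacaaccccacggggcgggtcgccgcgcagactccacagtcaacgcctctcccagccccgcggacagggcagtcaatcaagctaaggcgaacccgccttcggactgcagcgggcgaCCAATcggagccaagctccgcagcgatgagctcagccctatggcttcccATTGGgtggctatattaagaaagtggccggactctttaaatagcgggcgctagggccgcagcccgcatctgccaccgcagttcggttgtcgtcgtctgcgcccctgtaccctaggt
D16Ertd472e: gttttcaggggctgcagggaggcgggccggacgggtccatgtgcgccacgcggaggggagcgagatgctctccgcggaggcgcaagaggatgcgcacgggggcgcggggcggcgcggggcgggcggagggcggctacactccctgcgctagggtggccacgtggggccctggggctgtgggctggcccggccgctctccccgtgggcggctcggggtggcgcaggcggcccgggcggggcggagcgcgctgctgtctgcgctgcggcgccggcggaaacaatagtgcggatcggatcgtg

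A CCAAT box was found on either strand in 3 of the 4 windows, against 37.4% of 32851 RefSeq promoters of the same length. The St3gal3 window held 4, all read as ATTGG, with their first bases at -95, -46, -7 and 45 from the start. Rhob had CCAAT at -115 and ATTGG at -66, Osbpl3 had ATTGG at -76, and D16Ertd472e had no match. None of the 4 windows held the AP-1 letters TGANTCA, the cyclic AMP response element TGACGTCA, or the NF-kB, serum response factor (CArG) or interferon response (ISRE) patterns on either strand. Over all promoters 7.81% held the AP-1 letters, 1.79% the cyclic AMP element, 8.46% the NF-kB pattern, 1.63% the CArG box and 3.44% the ISRE. The windows were rich in G and C, at 62% for Osbpl3, 70% for St3gal3, 65.3% for Rhob and 77.3% for D16Ertd472e.

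The libraries held 20033154 to 45892308 counts. N4bp1 was lower in KO than in WT in all 9 conditions, by 0.78 to 1.70 on the log2 scale, and was still counted in KO cells (36.2 ± 5.28 CPM, SD, n = 3, untreated, against 64.7 ± 1.02 in WT). Y-linked genes summed to at most 0.208 CPM in the 27 KO libraries. In WT, each condition had 1 library at 162 to 207 CPM, 1 at 57.3 to 77.7 CPM and 1 at or under 0.160 CPM, so Y-linked RNA and genotype cannot be told apart in full, and the 3 WT libraries of a condition were unlike in it. The X-linked RNA Xist had 17.0 to 26.8, 80.7 to 134 and 88.0 to 141 CPM in these WT libraries, in the same order. Those of middle Y-linked level thus had Xist near that of the libraries with none. Whether each came from 1 mouse, as the labels describe, was not tested. All 8 macrophage markers were counted, summing to 19710 to 29717 CPM in WT and 17716 to 26620 CPM in KO. The 8 B and plasma cell markers summed to 16.8 to 105 CPM in WT and 74.3 to 167 CPM in KO, the 6 stromal and endothelial markers to 24.5 to 77.7 and 8.53 to 53.5 CPM, and the 8 neutrophil markers to 98.9 to 265 and 76.1 to 218 CPM, with no marker of these lists at 0 in every library. The part of these differences in the results was not tested. In KO Pam3 8 h replicate 3 only 12263 genes had a count; the other libraries had 16097 to 18039. In bulk libraries fewer cells of a type and less RNA per cell cannot be told apart.

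**Figure D1:**
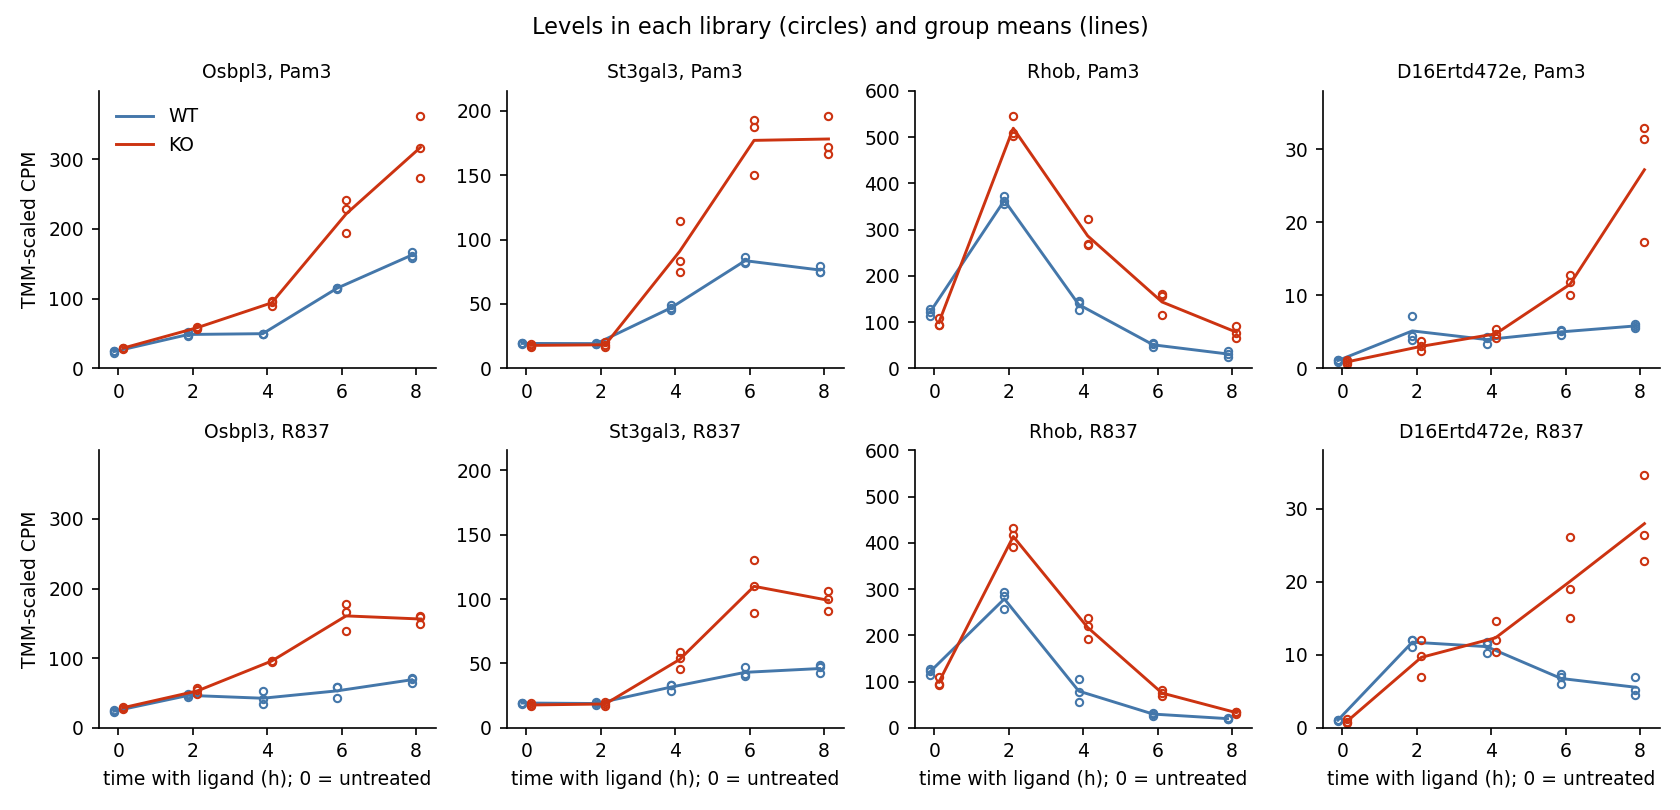
Scaled CPM on a linear axis against hours with the ligand (0 is untreated) for Osbpl3, St3gal3, Rhob and D16Ertd472e, with Pam3 in the upper row and R837 in the lower row. Circles are libraries and lines join the means of 3 libraries; Rhob peaks at 2 h, and the KO libraries of all 4 genes lie above the WT libraries at 6 and 8 h.

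Osbpl3, the lipid carrier, had its lowest levels in untreated cells, at 24.3, 24.9 and 22.6 CPM in WT and 27.7, 29.2 and 29.5 CPM in KO. At 2 h of Pam3 it stood at 51.4, 47.2 and 46.9 CPM in WT and 59.8, 57.0 and 58.1 CPM in KO. The genotypes thus started close together, with every KO library slightly above every WT library. At 4 h WT cells were still at 49.9, 49.5 and 49.6 CPM, while KO cells had 90.0, 95.3 and 96.6 CPM. Levels at 6 h were 116, 114 and 116 CPM in WT and 242, 228 and 194 CPM in KO. The values at 8 h of Pam3 were 158, 161 and 167 CPM in WT and 316, 273 and 363 CPM in KO, the highest of any group. The KO mean at 6 h, 222 ± 24.5 CPM (SD, n = 3), was above the WT mean at 8 h, 162 ± 4.69 CPM.

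With R837, Osbpl3 levels were close to those with Pam3 at 2 h in both genotypes and at 4 h in KO cells, and lower at 6 and 8 h in both. WT cells had 47.3, 44.6 and 47.9 CPM at 2 h, 33.9, 41.4 and 52.2 CPM at 4 h, 42.9, 58.0 and 58.4 CPM at 6 h and 72.0, 64.3 and 70.7 CPM at 8 h. KO cells had 54.0, 56.6 and 48.4 CPM at 2 h, 96.5, 94.6 and 96.6 CPM at 4 h, 178, 138 and 166 CPM at 6 h and 161, 149 and 159 CPM at 8 h. At 4 and 6 h the WT libraries lay on either side of the 2 h libraries, whereas every KO library at 4 h was above those at 2 h. The mean at 6 h was 303% of the mean at 2 h in KO cells and 114% in WT cells.

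St3gal3, the sialyltransferase, showed no early difference from untreated cells. Untreated libraries had 18.6, 19.6 and 19.7 CPM in WT and 19.2, 17.5 and 16.6 CPM in KO. At 2 h of Pam3 the values were 19.2, 18.6 and 19.7 CPM in WT and 20.3, 18.1 and 16.4 CPM in KO, and at 2 h of R837 they were 19.8, 19.2 and 17.6 CPM in WT and 18.7, 16.6 and 20.2 CPM in KO. The genotypes overlapped in all 3 of these conditions. At 4 h of Pam3 WT cells had 45.0, 49.0 and 46.6 CPM and KO cells 115, 74.7 and 83.3 CPM. At 6 h the values were 86.7, 82.4 and 81.7 CPM in WT and 188, 151 and 193 CPM in KO, and at 8 h 79.2, 75.0 and 74.9 CPM in WT and 196, 172 and 166 CPM in KO. The KO means were level at 6 and 8 h of Pam3 (177 and 178 CPM), while every WT library at 8 h was slightly below those at 6 h. The genotypes did not overlap from 4 h on.

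After R837 the late St3gal3 levels were lower. WT cells had 33.5, 32.9 and 28.4 CPM at 4 h, 40.6, 47.3 and 41.5 CPM at 6 h and 48.5, 47.3 and 42.4 CPM at 8 h. KO cells had 54.1, 46.0 and 59.3 CPM at 4 h, 130, 89.2 and 111 CPM at 6 h and 106, 90.4 and 100.4 CPM at 8 h. Again the groups did not overlap from 4 h on.

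Rhob, the immediate-early GTPase, had the opposite time course. Untreated cells had 122, 114 and 128 CPM in WT and 92.5, 109.5 and 94.5 CPM in KO, so the KO libraries were below the WT libraries before any ligand. At 2 h of Pam3 WT cells had 362, 371 and 355 CPM and KO cells 509, 546 and 502 CPM, and the order of the genotypes was turned. By 4 h WT cells were at 146, 127 and 141 CPM and KO cells at 267, 322 and 270 CPM. Levels at 6 h were 53.8, 46.3 and 52.0 CPM in WT and 115, 155 and 160 CPM in KO, and at 8 h 36.2, 25.0 and 31.4 CPM in WT and 65.3, 91.2 and 77.2 CPM in KO. At 8 h the WT mean was 8.51% of that at 2 h, and the KO mean was 15.0%.

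After R837, Rhob stood at 285, 294 and 257 CPM in WT and 417, 392 and 432 CPM in KO at 2 h. At 4 h WT cells had 55.0, 77.1 and 106 CPM, a wide spread, and KO cells 237, 221 and 193 CPM. At 6 h they had 26.4, 30.8 and 32.0 CPM in WT and 68.5, 76.3 and 80.9 CPM in KO. At 8 h they had 19.5, 18.2 and 22.0 CPM in WT and 30.0, 34.5 and 33.7 CPM in KO. The KO libraries were above the WT libraries at all 4 times, but the shares left at 8 h were close, at 7.14% of the 2 h mean in WT and 7.92% in KO.

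D16Ertd472e had the lowest counts of the 4, from 18 to 973 reads in a library, whereas the other 3 genes had at least 335. Untreated cells had 0.895, 1.14 and 1.12 CPM in WT and 1.19, 0.793 and 0.620 CPM in KO. At 2 h of Pam3 WT cells had 4.42, 7.11 and 3.80 CPM and KO cells 3.70, 2.98 and 2.32 CPM, with KO below WT. At 4 h the groups overlapped, at 4.18, 3.26 and 4.35 CPM in WT and 5.33, 4.10 and 4.70 CPM in KO. At 6 h the values were 5.14, 4.56 and 5.24 CPM in WT and 12.7, 11.8 and 10.0 CPM in KO, and at 8 h 6.12, 5.72 and 5.54 CPM in WT and 31.4, 17.3 and 32.8 CPM in KO. From 4 to 8 h of Pam3 the WT group means lay between 3.93 and 5.79 CPM, and the KO means between 4.71 and 27.2 CPM.

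R837 gave D16Ertd472e an early peak in WT cells, at 12.1, 11.0 and 12.1 CPM at 2 h and 10.2, 11.4 and 11.7 CPM at 4 h. WT levels were then 5.99, 7.36 and 6.93 CPM at 6 h and 5.15, 4.52 and 7.01 CPM at 8 h. KO cells had 9.90, 7.00 and 12.0 CPM at 2 h, 12.0, 10.4 and 14.6 CPM at 4 h, 26.1, 15.0 and 19.0 CPM at 6 h and 34.6, 22.8 and 26.4 CPM at 8 h. The genotypes overlapped at 2 and 4 h and were apart at 6 h, where the WT mean was below and the KO mean above that at 4 h.

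Ordered over the 18 groups, Osbpl3 and St3gal3 were highest in KO cells at 8 h of Pam3, Rhob in KO cells at 2 h of Pam3 and D16Ertd472e in KO cells at 8 h of R837. Of the 17 pairs of neighbours in that order, 8 had no overlap between their libraries for Osbpl3, 5 for St3gal3, 9 for Rhob and 2 for D16Ertd472e, and the libraries of the other pairs overlapped. The top 2 groups overlapped for St3gal3 and D16Ertd472e and were apart for Osbpl3 and Rhob. The lowest groups were WT untreated for Osbpl3, KO untreated for St3gal3 and D16Ertd472e, and WT R837 8 h for Rhob. On the scale of level per kilobase, the highest group means were 221 ± 10.0 CPM per kilobase for Rhob, 69.2 ± 6.17 for St3gal3, 45.1 ± 6.35 for Osbpl3 and 11.4 ± 2.45 for D16Ertd472e (SD, n = 3).

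**Figure D2:**
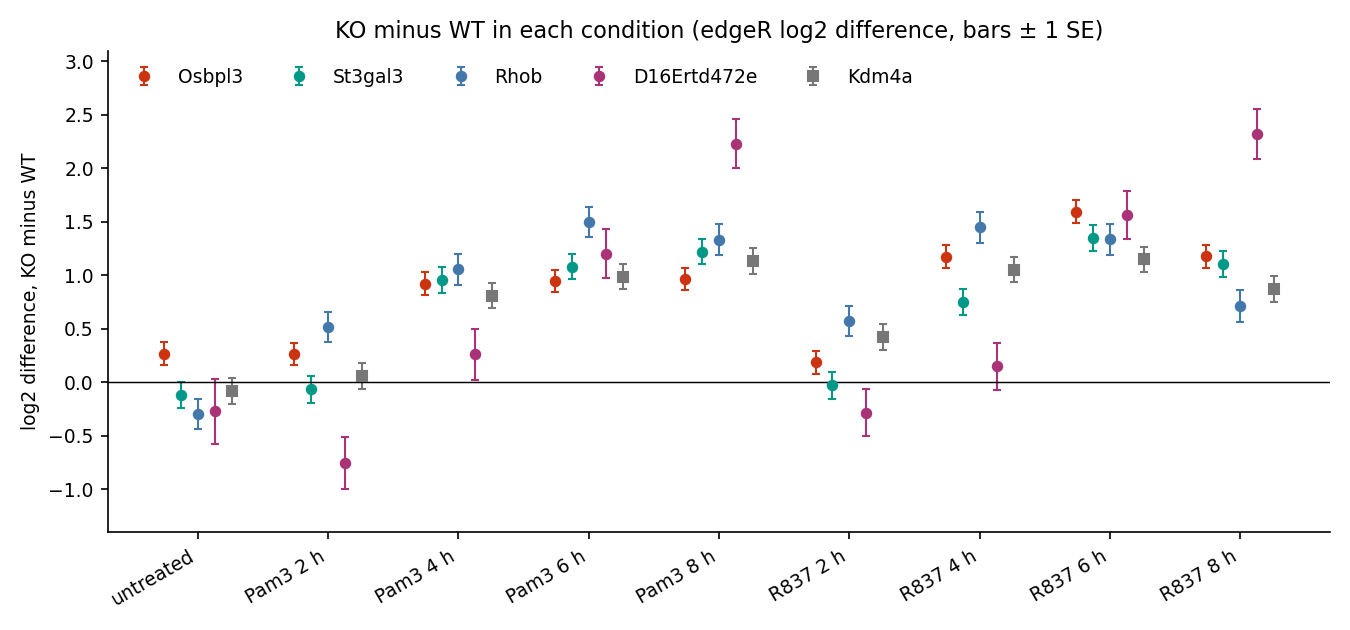
Log2 difference of KO minus WT in each of the 9 conditions for the 4 genes (circles) and for Kdm4a, the neighbour of St3gal3 (squares), with bars of 1 standard error. Rhob is above 0 from 2 h, Osbpl3 and St3gal3 are at 0.75 to 1.17 at 4 h, and D16Ertd472e is highest at 8 h.

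The differences between KO and WT reached their full size at different times. With Osbpl3, KO minus WT was 0.27 ± 0.11 (log2, SE) untreated, 0.27, 0.92, 0.95 and 0.97 at 2, 4, 6 and 8 h of Pam3, and 0.19, 1.17, 1.60 and 1.18 at the same times of R837. For St3gal3 it was -0.12 ± 0.12 untreated, then -0.07, 0.96, 1.08 and 1.22 with Pam3 and -0.03, 0.75, 1.35 and 1.10 with R837. Both genes were thus near the untreated difference at 2 h. From 4 h on Osbpl3 had 0.92 to 1.60 and St3gal3 0.75 to 1.35, each highest at 6 h of R837. Rhob had -0.29 ± 0.14 untreated, 0.52, 1.06, 1.50 and 1.33 with Pam3, and 0.57, 1.45, 1.34 and 0.72 with R837. D16Ertd472e had -0.27 ± 0.30 untreated, -0.76, 0.26, 1.20 and 2.23 with Pam3, and -0.28, 0.15, 1.57 and 2.32 with R837. It was the gene of the 4 with the greatest difference at 8 h, 4.69-fold with Pam3 and 5.00-fold with R837.

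Averaged over the 4 times and taken relative to untreated cells, the response in KO exceeded that in WT for Pam3 by 0.51 ± 0.12 for Osbpl3, 0.92 ± 0.14 for St3gal3, 1.39 ± 0.16 for Rhob and 1.01 ± 0.33 for D16Ertd472e (log2, SE). For R837 the excess was 0.77 ± 0.12, 0.91 ± 0.14, 1.31 ± 0.16 and 1.21 ± 0.32 in the same order. Both ligands were compared with the same untreated libraries, so the Pam3 and R837 values are not independent of each other. The untreated difference enters each of them, and the mean for D16Ertd472e was 1.30 with Pam3 and 1.50 with R837 when KO untreated replicate 1 was left out. The genes were selected on their difference in response, by a statistic that the sources used here do not name. Among 14970 genes tested, a mean response difference past an adjusted p of 0.05 was found by edgeR's quasi-likelihood test upward in 0.381% and downward in 0.514% of genes for Pam3, and in 1.31% and 2.41% for R837. By edgeR's F-test over the 4 times in place of the mean, 694 genes passed for Pam3 and 1119 for R837.

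All 3 KO libraries were above all 3 WT libraries for Osbpl3 in untreated cells, for Osbpl3 and Rhob at 2 h of either ligand, for Osbpl3, St3gal3 and Rhob at 4 h and for all 4 genes at 6 and 8 h. Over all genes tested, this held for 10.9% untreated, for 11.1%, 13.4%, 11.7% and 10.5% at 2, 4, 6 and 8 h of Pam3 and for 12.4%, 14.2%, 16.6% and 16.2% at those times of R837. The KO libraries were all below for Rhob untreated, where 11.6% of genes were, and for D16Ertd472e at 2 h of Pam3, where 10.8% were. Since the choice used these libraries, nothing is read from the counts. As background, genes higher in KO past an adjusted p of 0.05 by edgeR made up 0.514% untreated, 0.655%, 3.33%, 3.9% and 11.4% at 2, 4, 6 and 8 h of Pam3 and 1.47%, 3.88%, 6.76% and 7.17% at those times of R837.

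**Figure D3:**
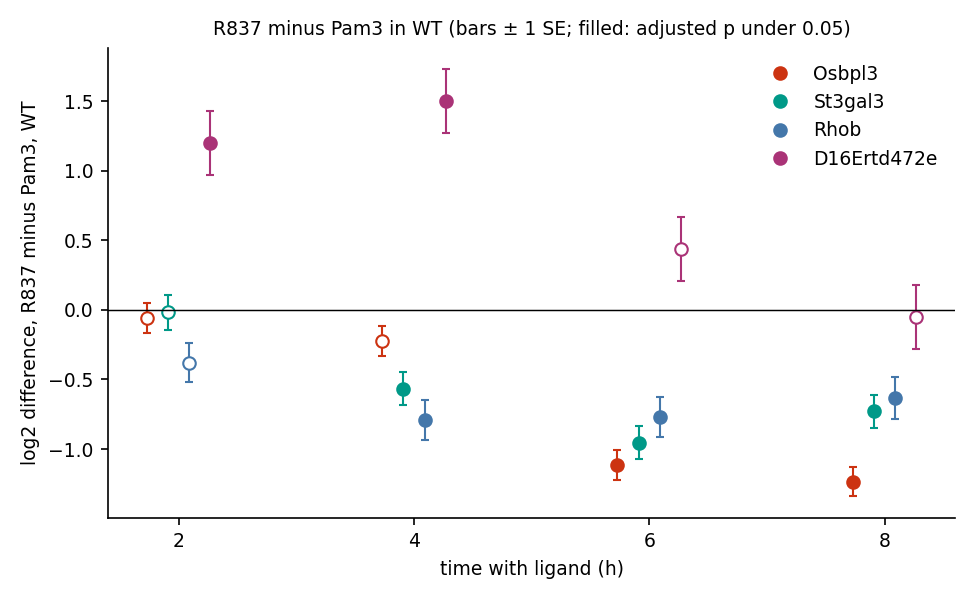
Log2 difference of R837 minus Pam3 in WT cells against hours with the ligand, with bars of 1 standard error and filled points where edgeR's adjusted p was under 0.05. Filled points of Osbpl3, St3gal3 and Rhob lie below 0 and those of D16Ertd472e, at 2 and 4 h, above it.

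In WT cells, which show how these genes behave with N4bp1 intact, Pam3 gave more Osbpl3, St3gal3 and Rhob RNA than R837 at 6 and 8 h, and R837 gave more D16Ertd472e at 2 and 4 h. By an F-test over the 4 times of the KO minus WT difference in response, Osbpl3 ranked 1 of 14970 genes with R837 and 108 with Pam3. St3gal3 ranked 5 with each ligand, Rhob 15 with R837 and 8 with Pam3, and D16Ertd472e 11 and 10. A low WT level with either ligand is among the values that the choice favoured. Osbpl3 was lower with R837 by 2.16-fold at 6 h (log2 -1.11 ± 0.11, edgeR adjusted p = 2.32e-11) and by 2.35-fold at 8 h (log2 -1.23 ± 0.11, edgeR adjusted p = 3.17e-11). At 2 and 4 h the difference was -0.06 ± 0.11 and -0.22 ± 0.11, with edgeR adjusted p = 0.929 and 0.143. Without WT R837 4 h replicate 3, whose 52.2 CPM was the highest of its group, the 4 h difference was -0.40 (adjusted p = 0.00632). For St3gal3 the difference was -0.02 ± 0.12 at 2 h (edgeR adjusted p = 0.990), and it was lower with R837 at 4, 6 and 8 h, by 0.57 ± 0.12, 0.95 ± 0.12 and 0.73 ± 0.12 on the log2 scale (edgeR adjusted p = 0.000275, 1.92e-08 and 1.86e-05).

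Rhob was lower with R837 at 4, 6 and 8 h, with log2 differences of -0.79 ± 0.14, -0.77 ± 0.14 and -0.63 ± 0.15 (edgeR adjusted p = 2.23e-05, 5.85e-05 and 0.0024). At 2 h it was at -0.38 ± 0.14 (edgeR adjusted p = 0.123). When only the libraries compared were fitted, the 2 h difference passed (adjusted p = 0.0122) and the 4 h difference did not (adjusted p = 0.0571), and without the 9 WT libraries of middle Y-linked level the 8 h difference did not pass (adjusted p = 0.125).

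D16Ertd472e was 2.30-fold higher with R837 at 2 h (log2 1.20 ± 0.23, edgeR adjusted p = 0.000387) and 2.83-fold higher at 4 h (log2 1.50 ± 0.23, edgeR adjusted p = 1.46e-06). It was at 0.44 ± 0.23 at 6 h (edgeR adjusted p = 0.183) and -0.05 ± 0.23 at 8 h (edgeR adjusted p = 0.939). Without the 9 WT libraries of middle Y-linked level, the 2 h difference was 1.14 (adjusted p = 0.0519), and with WT replicate 1 or 3 left out in all conditions it was 1.09 or 1.01 (adjusted p = 0.0794 and 0.0663). Over all genes, R837 was higher than Pam3 in 2.56%, 10.4%, 12.2% and 7.16% and lower in 2.22%, 11.5%, 10.5% and 4.37% at 2, 4, 6 and 8 h.

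In KO cells, given without a test, R837 minus Pam3 at 8 h was -1.02 ± 0.11 for Osbpl3, -0.85 ± 0.12 for St3gal3, -1.25 ± 0.15 for Rhob and 0.04 ± 0.21 for D16Ertd472e (log2, SE). The early excess of D16Ertd472e with R837 was also present in KO cells, at 1.67 ± 0.24 at 2 h and 1.39 ± 0.23 at 4 h.

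From 2 to 8 h in WT cells, Osbpl3 rose 3.35-fold with Pam3 (log2 1.74 ± 0.11, edgeR adjusted p = 5.36e-18) and 1.48-fold with R837 (log2 0.57 ± 0.11, edgeR adjusted p = 2.07e-05). St3gal3 rose 3.99-fold with Pam3 (edgeR adjusted p = 5.53e-18) and 2.44-fold with R837 (edgeR adjusted p = 4.69e-12). The rise with R837 was smaller than that with Pam3 by 1.18 ± 0.15 log2 units for Osbpl3 (edgeR adjusted p = 6.03e-07) and by 0.71 ± 0.17 for St3gal3 (edgeR adjusted p = 0.00647). The tests from 2 to 8 h, here and for Rhob and D16Ertd472e below, use WT libraries that the choice also used. Low WT levels were among the values it favoured, so these p-values are not independent of it. For St3gal3 this difference was -0.73 without the 9 WT libraries of middle Y-linked level (adjusted p = 0.154). It also missed the threshold when WT replicate 1, 2 or 3 was left out in all conditions, at -0.70 to -0.74.

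Rhob fell 11.7-fold from 2 to 8 h with Pam3 (log2 -3.55 ± 0.16, edgeR adjusted p = 5.23e-23) and 14.0-fold with R837 (log2 -3.81 ± 0.16, edgeR adjusted p = 2.03e-23). The ligands differed in that fall by -0.25 ± 0.20 (edgeR adjusted p = 0.612). D16Ertd472e had 0.18 ± 0.23 with Pam3 (edgeR adjusted p = 0.55) and fell 2.10-fold with R837 (edgeR adjusted p = 0.000128). The difference between the ligands was -1.25 ± 0.33 (edgeR adjusted p = 0.0122). It was -1.08 (adjusted p = 0.0608) without WT Pam3 2 h replicate 3, whose 3.80 CPM was the lowest of its group, and -1.10 (adjusted p = 0.314) without the WT libraries of middle Y-linked level. With WT replicate 1 or 3 left out in all conditions it was -1.05 or -1.30 (adjusted p = 0.236 and 0.135). Over all genes, 23.6% rose and 24.4% fell from 2 to 8 h with Pam3 and 22.3% rose and 23.2% fell with R837. The difference between the ligands was upward in 3.96% and downward in 1.9%.

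The same interval in KO cells, given without a test, showed a larger change for Osbpl3 (2.44 ± 0.11 with Pam3 and 1.56 ± 0.11 with R837) and St3gal3 (3.28 ± 0.13 and 2.42 ± 0.13). Rhob had -2.74 ± 0.15 and -3.66 ± 0.16. D16Ertd472e was at 3.17 ± 0.24 and 1.54 ± 0.22, where WT cells had no increase past the threshold.

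**Figure D4:**
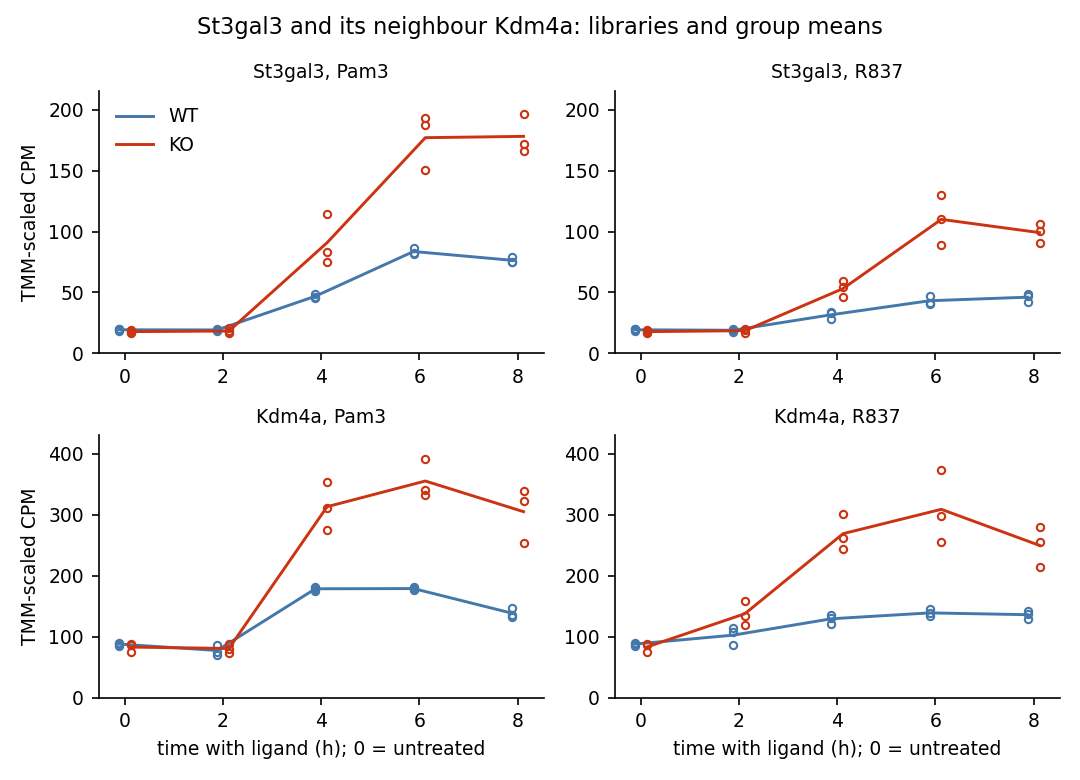
Scaled CPM on a linear axis against hours with Pam3 or R837 (0 is untreated) for St3gal3 and its neighbour Kdm4a, with circles for libraries and lines through the means of 3 libraries. At 4, 6 and 8 h the KO libraries lie above the WT libraries for both genes.

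The 2 nearest protein-coding genes on each side of each of the 4 genes made 16 neighbours, 8 of which passed the count filter. With Pam3 for 8 h, 2 were higher in KO (11.4% of all genes were) and none was lower. With R837 for 8 h, 1 was higher (7.17% of all genes) and 1 was lower (8.74% of all genes). The gene higher with both ligands was Kdm4a, a histone lysine demethylase, which lies 2.04 kb from St3gal3 on the same strand and ends just before St3gal3 starts. The others were Mpp6 beside Osbpl3 with Pam3 (log2 0.43 ± 0.10, edgeR adjusted p = 0.0021) and Hs1bp3 beside Rhob with R837 (log2 -0.47 ± 0.13, edgeR adjusted p = 0.00948).

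Kdm4a had 88.8, 89.8 and 85.8 CPM in untreated WT cells and 88.6, 74.5 and 86.7 CPM in untreated KO cells. At 8 h of Pam3 it had 136, 133 and 148 CPM in WT and 322, 254 and 340 CPM in KO, and at 8 h of R837 130, 138 and 142 CPM in WT and 280, 215 and 255 CPM in KO. The genotypes overlapped before the ligand and were apart at 8 h. KO minus WT was -0.08 ± 0.12 untreated (edgeR adjusted p = 0.921) and 0.06 ± 0.12 at 2 h of Pam3 (edgeR adjusted p = 0.932). It was 0.81, 0.99 and 1.14 at 4, 6 and 8 h of Pam3 (edgeR adjusted p = 6.56e-06, 9.75e-08 and 1.33e-09), and 1.05, 1.15 and 0.87 at those times of R837 (edgeR adjusted p = 9.2e-09, 7.78e-10 and 4.76e-07).

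At 2 h of R837 Kdm4a was 0.42 ± 0.12 higher in KO (edgeR adjusted p = 0.0388), a call that was lost in 12 of 21 alternative settings, with adjusted p up to 0.383. Without single libraries of that condition it was 0.47 without WT replicate 2 (adjusted p = 0.0716), 0.33 without WT replicate 3 (adjusted p = 0.261), 0.45 without KO replicate 1 (adjusted p = 0.0867) and 0.32 without KO replicate 3 (adjusted p = 0.273). Relative to untreated cells and averaged over the 4 times, the KO response of Kdm4a exceeded the WT response by 0.83 ± 0.13 with Pam3 and 0.96 ± 0.13 with R837 (edgeR adjusted p = 0.000253 and 1.02e-05). St3gal3 had 0.92 and 0.91 by the same measure. The genes are counted over exons that do not overlap, and whether transcription runs from Kdm4a into St3gal3 was not tested. In WT cells, R837 minus Pam3 for Kdm4a was 0.40, -0.46, -0.36 and -0.03 at 2, 4, 6 and 8 h (log2; edgeR adjusted p = 0.0357, 0.00259, 0.0202 and 0.938), where St3gal3 had -0.02, -0.57, -0.95 and -0.73. The Kdm4a calls were lost in 9, 2 and 8 of 21 alternative settings at 2, 4 and 6 h, among them that without the WT libraries of middle Y-linked level (0.35, -0.37 and -0.39). Whether the genes differ in this was not tested. Artn, 2.39 kb from St3gal3 on its other side, had at most 13 counts in a library and was not tested.

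**Figure D5:**
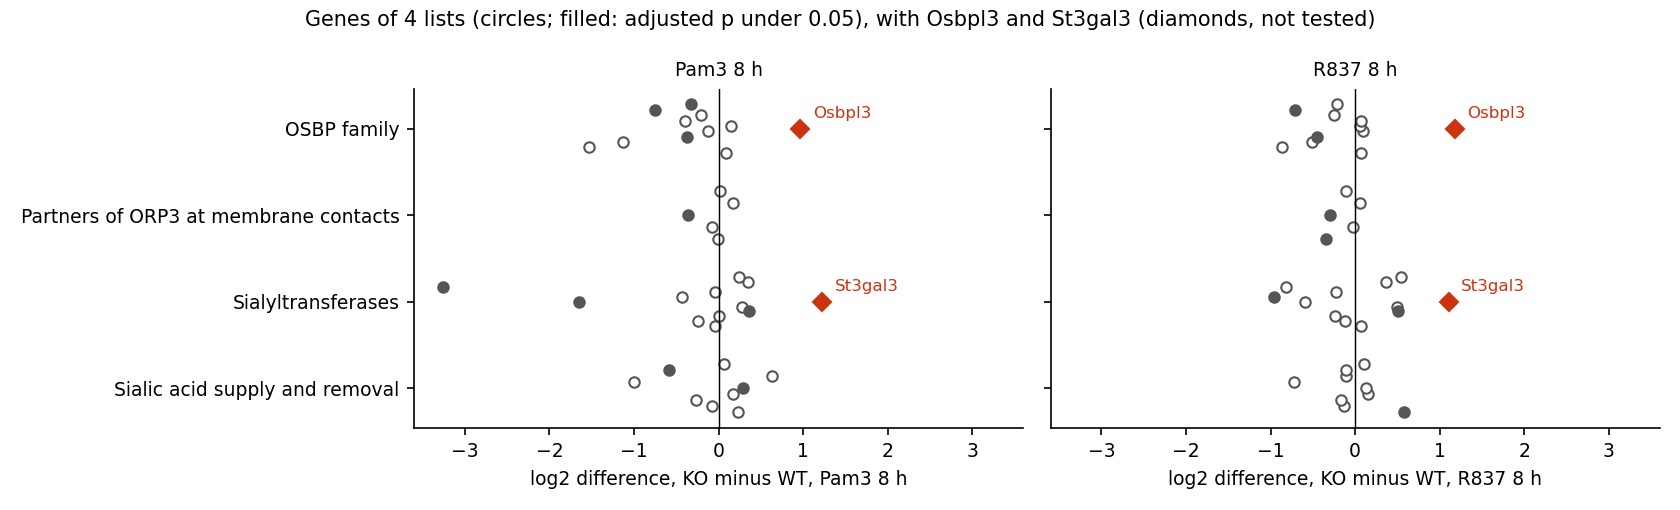
Log2 difference of KO minus WT at 8 h of Pam3 and of R837 for the tested genes of 4 lists, 1 circle a gene, filled where edgeR's adjusted p was under 0.05. Osbpl3 and St3gal3, drawn as diamonds and not tested, lie above the tested genes of their own families, which the choice of these genes favoured.

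The families of Osbpl3 and St3gal3 were counted without them. Both genes were chosen for a stronger response in KO, so their place above their relatives is not read as a result. With so few genes in a list, the KO minus WT counts at 8 h are not read as results about the families either. At 8 h of Pam3, a fit of only the libraries compared lost the calls of Osbpl9, Osbpl11, Stim1, St3gal5, St6gal1, Neu1 and Siae. The call of Osbpl8 was kept in it. KO Pam3 8 h replicate 3, with 12263 genes counted, is among those libraries. Leaving it out in that condition lost the calls of Neu1, St3gal5 and St8sia1. In the oxysterol-binding protein family without Osbpl3, 10 of 11 genes were tested. No call was made between KO and WT in untreated cells, where 0.514% of all genes were higher and 0.367% lower. With 8 h of Pam3 none was higher (11.4% of all genes were) and 3 were lower (12.4% of all genes). At 8 h of R837 none was higher (7.17% of all genes) and 2 were lower (8.74% of all genes), with medians of -0.35 and -0.23 against -0.05 and 0.00 over all genes (log2). Osbpl8, a lipid carrier anchored in the endoplasmic reticulum, had 441 ± 29.5 CPM in WT and 261 ± 3.07 CPM in KO at 8 h of Pam3 (SD, n = 3; log2 -0.76 ± 0.14, edgeR adjusted p = 8.77e-05). With R837 it had 556 ± 48.5 and 339 ± 52.5 CPM (log2 -0.71 ± 0.14, edgeR adjusted p = 0.000216). Osbpl11 was lower with R837 by 0.45 ± 0.10 on the log2 scale (edgeR adjusted p = 0.00129). These 3 calls were kept in all 21 alternative settings. Osbpl9 and Osbpl11 were also lower at 8 h of Pam3, calls that were lost in 2 and 3 of 21.

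In WT cells most of the family fell with the ligands, while Osbpl3 at 8 h was above its untreated level by 2.76 ± 0.11 with Pam3 and 1.53 ± 0.11 with R837 (log2, SE, not tested). Against untreated WT cells 6 of the 10 tested genes fell and none rose by 8 h of Pam3, and 8 fell and Osbp rose by 8 h of R837. Over all genes 26.3% rose and 25.9% fell at 8 h of Pam3, and 28.3% rose and 29.1% fell at 8 h of R837. The paralog closest to ORP3 in the list, Osbpl6, had at most 4 counts in a library. Osbpl7, the other close paralog, had 6.45 CPM in WT and 5.60 CPM in KO at 8 h of Pam3 (log2 -0.21 ± 0.15, edgeR adjusted p = 0.328). Of 5 partners of ORP3 at membrane contacts, Stim1, the calcium sensor of the endoplasmic reticulum, was lower in KO at 8 h of Pam3 and of R837 (log2 -0.36 and -0.30, edgeR adjusted p = 0.0049 and 0.0248). Orai1, the calcium channel it opens, was lower in KO at 8 h of R837 (log2 -0.34, edgeR adjusted p = 0.0452). For Orai1, KO minus WT was already -0.39 ± 0.12 in untreated cells (edgeR adjusted p = 0.127). The mean response difference of Orai1 with R837 was 0.19 ± 0.13 (edgeR adjusted p = 0.651), so the 8 h value is not read as an effect of R837. Thus 1 of the 5 was lower with Pam3 (12.4% of all genes) and 2 with R837 (8.74% of all genes), and none was higher (11.4% and 7.17% of all genes). The Stim1 calls were lost in 5 of 21 alternative settings with Pam3 and in 10 of 21 with R837, and the Orai1 call in 14 of 21.

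Among sialyltransferases other than St3gal3, 11 of 19 were tested. None was called in untreated cells, where 0.514% of all genes were higher and 0.367% lower. At 8 h of Pam3 1 was higher (11.4% of all genes) and 2 were lower (12.4% of all genes). At 8 h of R837 1 was higher (7.17% of all genes) and 1 was lower (8.74% of all genes). St3gal5, which makes the ganglioside GM3, was higher in KO at 8 h of Pam3 and R837, at 97.8 ± 15.1 CPM against 76.3 ± 6.88 CPM with Pam3 (edgeR adjusted p = 0.047) and 118 ± 9.39 CPM against 83.5 ± 8.62 CPM with R837 (edgeR adjusted p = 0.00659). The St3gal5 calls were lost in 10 of 21 alternative settings with Pam3 and in 3 of 21 with R837. At 4 and 6 h of both ligands St3gal5 was also higher in KO, as was St3gal1 with R837. Lower were 2 and 1 genes at 4 and 6 h of Pam3 and 1 and 2 of R837, St3gal4 among them each time. Over all 14970 genes 499, 584, 581 and 1012 were higher and 463, 612, 983 and 1452 lower, in the same order. In the mean response difference only St3gal5 was called, upward with R837 (1.31% of all genes), lost in 2 of 45 settings. With Pam3 for 8 h, St6gal1, which adds sialic acid in another linkage, was lower (log2 -1.64 ± 0.38, edgeR adjusted p = 0.00124). Its level was low there, with the WT mean given below, and the call was lost in 1 of 21 alternative settings, that of only the libraries compared. St8sia1 was also lower (edgeR adjusted p = 0.0358, lost in 8 of 19 alternative settings), and St6galnac4 was lower with R837 for 8 h (log2 -0.96 ± 0.19, edgeR adjusted p = 0.000311).

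The paralogs named for their likeness to St3gal3 are St3gal4 and St3gal6. St3gal4 had 86.5, 80.8 and 74.3 CPM in WT and 56.2, 45.2 and 46.0 CPM in KO at 4 h of Pam3, with KO below WT, where St3gal3 was above. KO minus WT for St3gal4 was -0.49, -0.71, -0.46 and 0.01 at 2, 4, 6 and 8 h of Pam3 (log2; edgeR adjusted p = 0.0489, 0.000223, 0.0188 and 0.971) and -0.39, -0.78, -0.53 and -0.24 with R837 (edgeR adjusted p = 0.105, 1.98e-05, 0.00209 and 0.23). The calls at 4 h of either ligand and 6 h of R837 were kept in all 21 alternative settings, and those at 2 and 6 h of Pam3 were lost in 14 and 8 of 21. St3gal6 was at 0.28 ± 0.37 at 8 h of Pam3 and 0.50 ± 0.38 at 8 h of R837 (edgeR adjusted p = 0.629 and 0.454) and passed in none of the 9 conditions.

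In WT cells 4 of the 11 sialyltransferases rose and 6 fell at 8 h of either ligand, where 26.3% of all genes rose and 25.9% fell with Pam3 and 28.3% rose and 29.1% fell with R837. Those that rose were St3gal1, St3gal4, St3gal5 and St3gal6, and St6gal1 fell from 86.9 ± 7.07 CPM in untreated cells to 1.92 ± 0.26 CPM with Pam3 and 3.09 ± 1.29 CPM with R837. Of 12 genes for sialic acid supply and removal, 9 were tested and 8 fell in WT cells with each ligand (25.9% of all genes fell with Pam3 and 29.1% with R837), among them Gne, the first enzyme of sialic acid synthesis (log2 -1.09 ± 0.20 with Pam3 and -1.69 ± 0.21 with R837, edgeR adjusted p = 1.14e-05 and 2.06e-09). Between KO and WT, Neu1, a lysosomal sialidase, was higher and Siae, a sialic acid esterase, lower at 8 h of Pam3, and Casd1, a sialic acid acetyltransferase, was higher at 8 h of R837 (log2 0.57 ± 0.12, edgeR adjusted p = 0.000458). Of the 9 genes, 1 was thus higher and 1 lower at 8 h of Pam3 (11.4% and 12.4% of all genes). At 8 h of R837 1 was higher and none lower (7.17% and 8.74% of all genes). The Casd1 and St6galnac4 calls with R837 were kept in all 21 alternative settings, and the Neu1 and Siae calls were lost in 11 and 1 of 21.

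The genes whose 18 group means were most like those of each of the 4 were found by Pearson's r of log2(CPM + 1) among 10207 genes. They are a description, since all share these libraries. For Osbpl3 these were Prkar2b (0.977), Zwint (0.966), Lars (0.959), Hars (0.957) and Ltv1 (0.951). For St3gal3 they were Ntng2 (0.970), Gm16685 (0.968), Tbcb (0.965), 0610037L13Rik (0.965) and Rabggtb (0.964), and its neighbour Kdm4a had 0.903. Rhob was most like Parvg (0.972), Slc29a1 (0.965), Cd109 (0.953), Sh3pxd2a (0.949) and Col15a1 (0.937). D16Ertd472e was most like Gm18916 (0.907), Dr1 (0.897), Il1f9 (0.895), Cep85l (0.889) and Ptpn1 (0.881). Among the 4 themselves, Osbpl3 and St3gal3 had the highest value, 0.911, and Rhob was negative with each of the other 3, from -0.44 to -0.17.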

How the data were processed

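RNA was from the 54 BMDM cultures, made into libraries with the TruSeq RNA kit v2 and read as single-end 50 bp reads on a HiSeq4000, per the labels. The deposited counts are raw reads over the exons of each gene, per the file headers. The deposited RPKM equal those counts over the deposited exon width and a library total, and they were not tested. GSNAP and GRCm38 are named in the submitters' processing notes. The sources used here give no counting tool, strand setting or versions. Counts without a gene symbol made up at most 0.0245% of a library.

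The 4 genes, the gene lists and the tests were chosen with earlier results of these data known. Genes with enough counts (filterByExpr, 10 in a library and 15 in all; 14970 genes) were fitted over all 18 groups with edgeR 4.0.16 (quasi-likelihood, robust, R 4.3.3), and p-values were adjusted by Benjamini-Hochberg over all of them. Standard errors are the log2 difference over the root of F. The text names the 4 genes, N4bp1, called list members, named paralogs, the 2 nearest protein-coding genes on each side and the 5 genes most like each. Alternatives were other scalings and filters, DESeq2 1.42.0, limma 3.58.1 (voom), fits of only the libraries compared, a replicate block and libraries left out. The fitting was tested on simulated data. Replicate numbers did not pair KO with WT libraries. Of the 6 gene lists fixed, 2 are not reported here. Promoters are RefSeq sequences of GRCm38.p6.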

Additional observations from a re-analysis of the deposited data

Results flagged for a closer look

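In WT cells the change from 2 to 8 h differed between the ligands for 3 of the 4 genes by a direct test of that difference. R837 minus Pam3 was -1.25 for D16Ertd472e, -1.18 for Osbpl3 and -0.71 for St3gal3 on the log2 scale (edgeR adjusted p = 0.0122, 6.03e-07 and 0.00647, in WT libraries that the choice of the genes also used). Osbpl3 and St3gal3 rose with both ligands and less with R837, whereas D16Ertd472e fell with R837 and not past the threshold with Pam3. The Osbpl3 difference was the one of the 3 that passed in every alternative setting.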

How the results depend on the processing

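Of the values tested for the 4 genes, 244 of 252 under other settings and 350 of 360 with a library or replicate number left out kept direction and side of the threshold, and no value past the threshold turned its sign. For the untested values, 656 of 684 and 1075 of 1104 moved by less than the replicate spread. The cause of the changes was not tested. Rhob R837 minus Pam3 at 2 h passed with no filter on counts (-0.38, adjusted p = 0.016) and with only the libraries compared (-0.38, adjusted p = 0.0122). In that second fit Rhob at 4 h missed the threshold (-0.77, adjusted p = 0.0571) and D16Ertd472e at 6 h passed (0.44, adjusted p = 0.0457). Leaving out the 9 WT libraries with middle Y-linked counts, chosen after the data were seen, lost D16Ertd472e at 2 h (1.14), Rhob at 8 h (-0.56) and the ligand differences in the change from 2 to 8 h of St3gal3 (-0.73) and D16Ertd472e (-1.10). Over all alternative settings, leave-outs among them, the mean response difference of D16Ertd472e ran from 0.84 to 1.30 with Pam3 and from 0.97 to 1.50 with R837. Its R837 minus Pam3 difference at 2 h ran from 1.01 to 1.55 and its ligand difference in change from -1.56 to -1.05, that of St3gal3 from -0.76 to -0.66, and Osbpl3 R837 minus Pam3 at 4 h from -0.40 to -0.043. The replicate numbers did not pair KO with WT libraries (median correlation -0.02 over 27 pairs, and 7 of 27 KO libraries were most like the WT library of the same number). Within a genotype, libraries of the same number had a median correlation of 0.11 in WT and 0.10 in KO (over 0.1 in 56 and 53 of 108 pairs), against -0.06 and -0.05 for different numbers (71 and 41 of 216). The WT library with high Y-linked counts is number 1 in 5 conditions and 2 in 4, and that with none is number 3 in 6 and 1 in 3, so a block on the number, or leaving out 1 number in all conditions, may mix mice. A replicate block within genotype changed no call for the 4 genes or Kdm4a (St3gal3 ligand difference -0.71, adjusted p = 0.000345), but raised the genes higher in KO at 2 h of Pam3 from 98 to 167 and those lower in untreated KO cells from 55 to 84. Counts over all genes moved by over 1.5 times in 62 of 468 other settings and 175 of 732 leave-outs, as in untreated cells, where 77 genes higher in KO became 207 with no filter, 125 with DESeq2 and 23 without the WT libraries of middle Y-linked counts. D16Ertd472e, with as few as 18 reads in a library, is the gene of the 4 whose depth limits precision most.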
